A study of Homo sapiens with 36 samples.

Results

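Interferon-stimulated genes are the genes that cells switch on after they sense interferon, and 43 of them were followed here through knockdown of EglN2 and of KDM5A in 2 human cell lines. The 43 members were chosen by symbol, from a list of antiviral effectors, nucleic acid sensors and interferon-responsive transcription factors; no threshold on a measured value was used, but earlier results of these data were known when they were chosen. Of the 43, 42 had a row in the MDA-MB-231 table for EglN2, 43 in the MDA-MB-231 table for KDM5A, 33 in the 293T table for EglN2 and 32 in the 293T table for KDM5A, and 31 had a row in all 4. The tables together named 20633 genes.

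RNA sequencing of 36 libraries covered 12 groups of 3. The lines were 293T, derived from human embryonic kidney cells, and MDA-MB-231, derived from a human breast cancer. In each line siEglN2-1 and siEglN2-2 had the control siRNA siControl as their reference, and shKDM5A-1 and shKDM5A-2 the control shRNA shControl. EglN2 is a prolyl hydroxylase of the oxygen-sensing family and KDM5A removes methyl groups from lysine 4 of histone H3. All groups grew in the same DMEM-based medium, and no label names an interferon or virus treatment. Time after transfection or transduction is not given in the sources used here. EglN2 was lowered only by siRNA and KDM5A only by shRNA, so target and delivery cannot be told apart.

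Type I and type III interferons signal through JAK kinases to a complex that includes STAT2 and IRF9 and binds the interferon-stimulated response element (ISRE) in the promoters of these genes. Interferon gamma acts on a different sequence, the gamma-activated site (GAS). The products sense viral RNA (IFIH1, DDX58), block viral translation (the IFIT family), activate RNA decay (the OAS family), restrict entry or release at membranes (the IFITM proteins, BST2), or modify proteins with ISG15. Many epithelial and tumour lines express part of the set at a low level without added interferon.

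RefSeq promoter windows (GRCh38.p14, 250 bases before to 50 after the start) were matched for 35 of the 43 members. The ISRE core, searched as GAAA, any 2 bases and GAAA on both strands, was found in 24 of the 35 windows (68.6%), against 1255 of all 35116 windows (3.57%). The GAS core, searched as TTCNNNGAA on both strands, was found in 9 of the 35 windows (25.7%), against 2689 of all 35116 (7.66%). The match of the 2 patterns overlapped in BST2, IFITM1 and IFI27. These are matches of letters and not measured binding. One 30-base stretch per gene is shown for members whose values are described below, in the direction of the gene and with the core in capitals. IFIT1, IFIT3, IFIT5, DDX60, TRIM21, MX1 and SAMD9 carry the ISRE core, which reads as TTTC, any 2 bases and TTTC where it lies on the opposite strand, and IRF9 and IRF1 carry only the GAS core.
IFIT1 (chr10:89392510-89392539, + strand): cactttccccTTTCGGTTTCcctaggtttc
IFIT3 (chr10:89327865-89327894, + strand): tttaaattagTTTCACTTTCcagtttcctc
IFIT5 (chr10:89414513-89414542, + strand): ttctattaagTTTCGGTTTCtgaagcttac
DDX60 (chr4:168318821-168318850, - strand): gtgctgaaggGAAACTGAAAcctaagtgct
TRIM21 (chr11:4393666-4393695, - strand): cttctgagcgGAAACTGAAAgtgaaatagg
MX1 (chr21:41420559-41420588, + strand): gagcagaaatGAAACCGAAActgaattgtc
SAMD9 (chr7:93118096-93118125, - strand): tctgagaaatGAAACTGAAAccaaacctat
IRF9 (chr14:24161192-24161221, + strand): accacgtgatTTCTGGGAAaaggccctccc
IRF1 (chr5:132490878-132490907, - strand): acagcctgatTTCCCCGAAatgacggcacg

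The libraries held 14361177 to 27592124 counts each. EGLN2 fell by 2.24 and 2.29 on the log2 scale with the 2 siRNAs in MDA-MB-231 and by 1.57 and 1.54 in 293T. KDM5A fell by 1.57 and 1.42 with the 2 shRNAs in MDA-MB-231 and by 1.30 and 1.08 in 293T. Markers of MDA-MB-231 (CD44, CAV1, PLAU, S100A4, ANXA1 and VIM) were all detected in that line, CD44 had no row in the 293T tables, and of LIN28B, NEFM, NEFL, PAX2 and ZIC2 only ZIC2 had a row in the MDA-MB-231 tables. Of the blood cell markers PTPRC, CD3E, MS4A1, LYZ and HBB, none had a row in 293T and only PTPRC and LYZ did in MDA-MB-231, at control means of 0.527 to 1.00 CPM (counts scaled to the size of the library). A 293T siControl library without a replicate number and MDA-MB-231 siControl replicate 1 stood apart from their partners (chi-square per degree of freedom over genes 19.2 to 22.9 and 6.71 to 7.65, against at most 3.08 in all other pairs), and counts that rest on them are also given without them. The labels do not state whether libraries of 1 group are separate cultures, so p-values measure the spread between these libraries only. All levels are CPM after TMM scaling, which compares a gene across libraries of an experiment and not genes with each other. In bulk RNA, fewer cells that express a gene and less RNA per cell cannot be told apart.

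In MDA-MB-231, knockdown of EglN2 went with higher levels of most interferon-stimulated genes and knockdown of KDM5A with lower levels. With siEglN2-1, 27 of 42 members tested rose (64.3%, against 21.5% of all genes tested) and 2 fell (against 23.0%). With siEglN2-2, 26 of 42 rose (against 21.8%) and 2 fell (against 23.6%). The median member changed by 0.25 and 0.22 on the log2 scale with the 2 siRNAs, and the median of all genes by 0.0038 and 0.0019. With shKDM5A-1, 5 of 42 members rose (against 28.1%) and 26 fell (61.9%, against 27.2%). With shKDM5A-2, 4 of 42 rose (against 29.4%) and 33 fell (78.6%, against 29.6%). The median member changed by -0.36 and -0.46, and the median of all genes by -0.0048 and 0.0020. A call means an adjusted p under 0.05 over all genes tested.

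Counting only members called in the same direction with both reagents, EglN2 knockdown raised 26 of 42 in MDA-MB-231 (61.9%, against 18.3% of all genes tested) and lowered 2 (against 20.4%), namely IRF1 and OAS1. KDM5A knockdown raised 1, IFI6 (against 16.4%), and lowered 22 (52.4%, against 15.8%). Without MDA-MB-231 siControl replicate 1 the EglN2 counts were 25 and 2. The 2 siRNAs share their controls, and so do the 2 shRNAs, so both-reagent counts are not independent repeats. The mitochondrial share of counts was 8.87% ± 0.06 (SD, n = 3) in siControl, 9.33% ± 0.10 and 9.24% ± 0.16 with the siRNAs, 7.69% ± 0.03 in shControl and 9.16% ± 0.06 and 9.75% ± 0.12 with the shRNAs. Its part in these results was not tested.

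**Figure D1:**
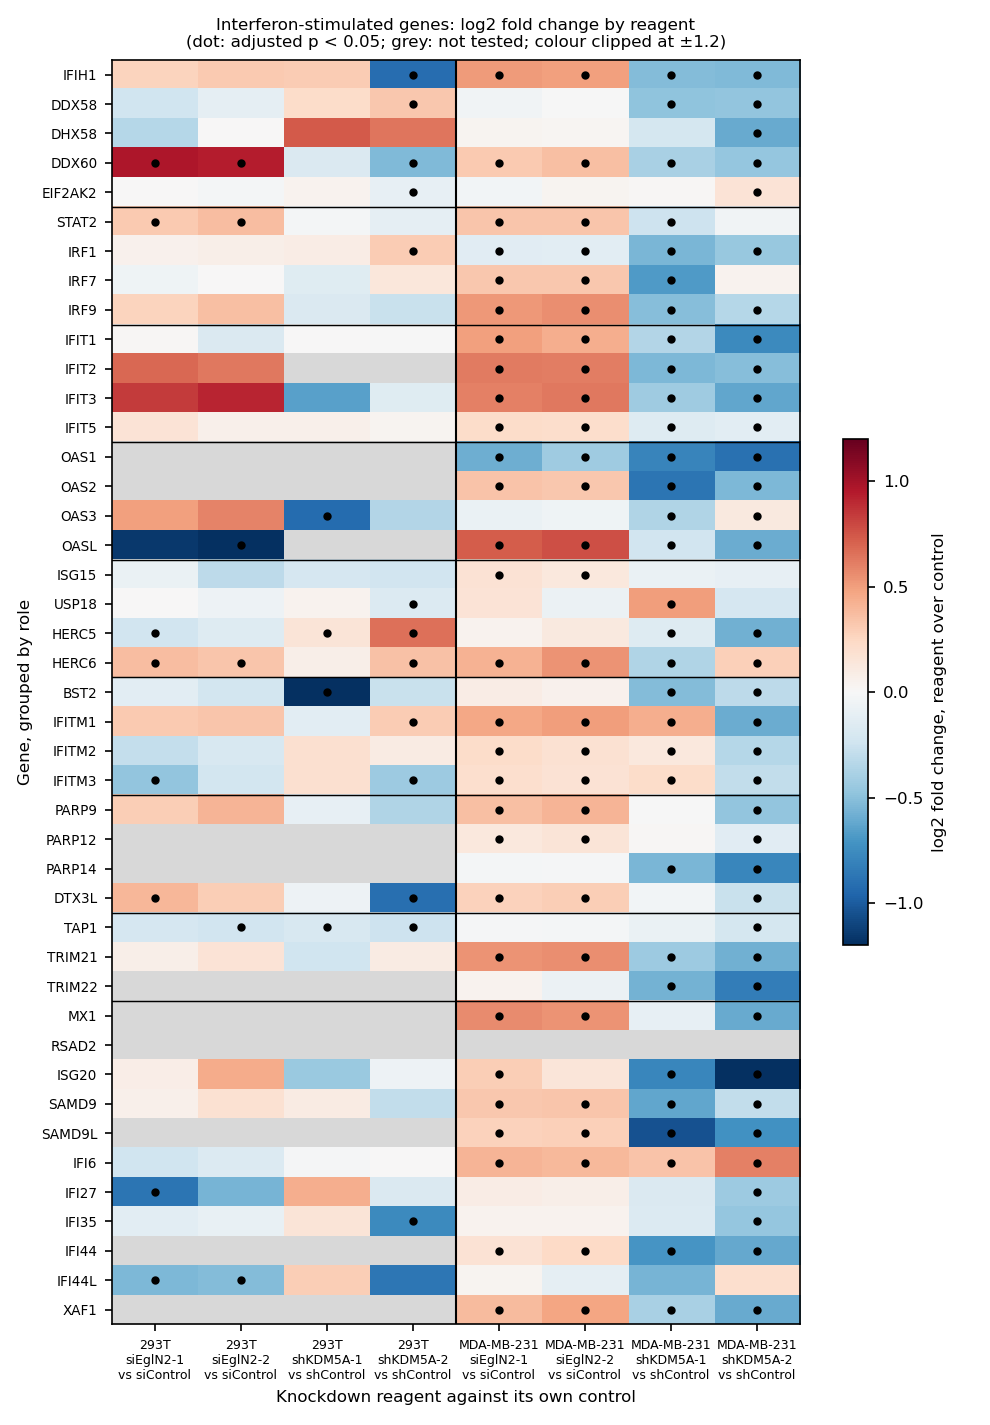
Colour gives the log2 fold change of each interferon-stimulated gene (rows, grouped by role) for each reagent over its own control (columns), with a dot where adjusted p was under 0.05 and grey where a gene was not tested. In MDA-MB-231 the siRNA columns carry 27 and 26 genes called higher and the shRNA columns 26 and 33 called lower, while dots are fewer in 293T.

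The IFIT proteins bind viral RNA and block its translation. All 4 family members rose with both EglN2 siRNAs and fell with both KDM5A shRNAs in MDA-MB-231. IFIT1 stood at 24.8, 26.9 and 25.6 CPM in siControl, 36.6, 38.6 and 33.6 with siEglN2-1 and 34.6, 35.2 and 34.6 with siEglN2-2 (log2 fold changes 0.49 ± 0.06, SE, and 0.43 ± 0.06, adjusted p = 4.1e-10 and 9.8e-09). In the shRNA experiment it stood at 57.5, 55.4 and 56.7 CPM in shControl, 44.7, 45.2 and 43.1 under shKDM5A-1 and 34.1, 33.4 and 32.3 under shKDM5A-2 (-0.35 ± 0.04 and -0.76 ± 0.05, adjusted p = 3.1e-08 and 1.3e-15). No knockdown library overlapped its controls, and all shKDM5A-2 libraries lay below all shKDM5A-1 libraries. IFIT3, the partner that stabilises IFIT1, measured 78.4, 74.2 and 78.3 CPM in siControl, 118, 118 and 116 with siEglN2-1 and 119, 119.7 and 120.1 with siEglN2-2 (0.60 ± 0.03 and 0.64 ± 0.03, adjusted p = 1.2e-20 and 1.4e-21). It measured 143, 143 and 142 CPM in shControl, 106, 105 and 108 under shKDM5A-1 and 92.3, 89.3 and 95.5 under shKDM5A-2 (-0.42 ± 0.03 and -0.62 ± 0.03, adjusted p = 6.9e-13 and 4.4e-17). Again no knockdown library overlapped its controls. IFIT2 rose from 43.95, 38.7 and 45.02 CPM to 65.2, 67.9 and 64.01 with siEglN2-1 and 65.2, 63.7 and 66.3 with siEglN2-2 (0.63 ± 0.05 and 0.61 ± 0.05, adjusted p = 9.8e-16 and 1.7e-15). It fell from 82.9, 85.99 and 85.4 CPM in shControl to 60.1, 58.6 and 56.9 under shKDM5A-1 and 60.1, 57.3 and 60.6 under shKDM5A-2 (-0.53 ± 0.04 and -0.52 ± 0.04, adjusted p = 2.1e-13 and 3.7e-13), with no overlap of groups in either experiment. IFIT2 shares exon bases with LIPA on the other strand, and the kit is not stated to keep strand. The same limit holds for OAS1, IRF1, EIF2AK2, ISG15, IFITM3, TAP1, MX1, RSAD2 and XAF1, which also overlap genes on the other strand. IRF9 and TRIM22 share exon bases with another gene on the same strand. IFIT5 changed least in the family, by 0.22 ± 0.04 and 0.21 ± 0.04 with the siRNAs and -0.15 ± 0.05 and -0.13 ± 0.05 with the shRNAs. Its shRNA calls were lost in some alternatives: that of shKDM5A-2 with DESeq2 (-0.13) and that of shKDM5A-1 without shKDM5A-1 replicate 3 (-0.11).

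**Figure D2:**
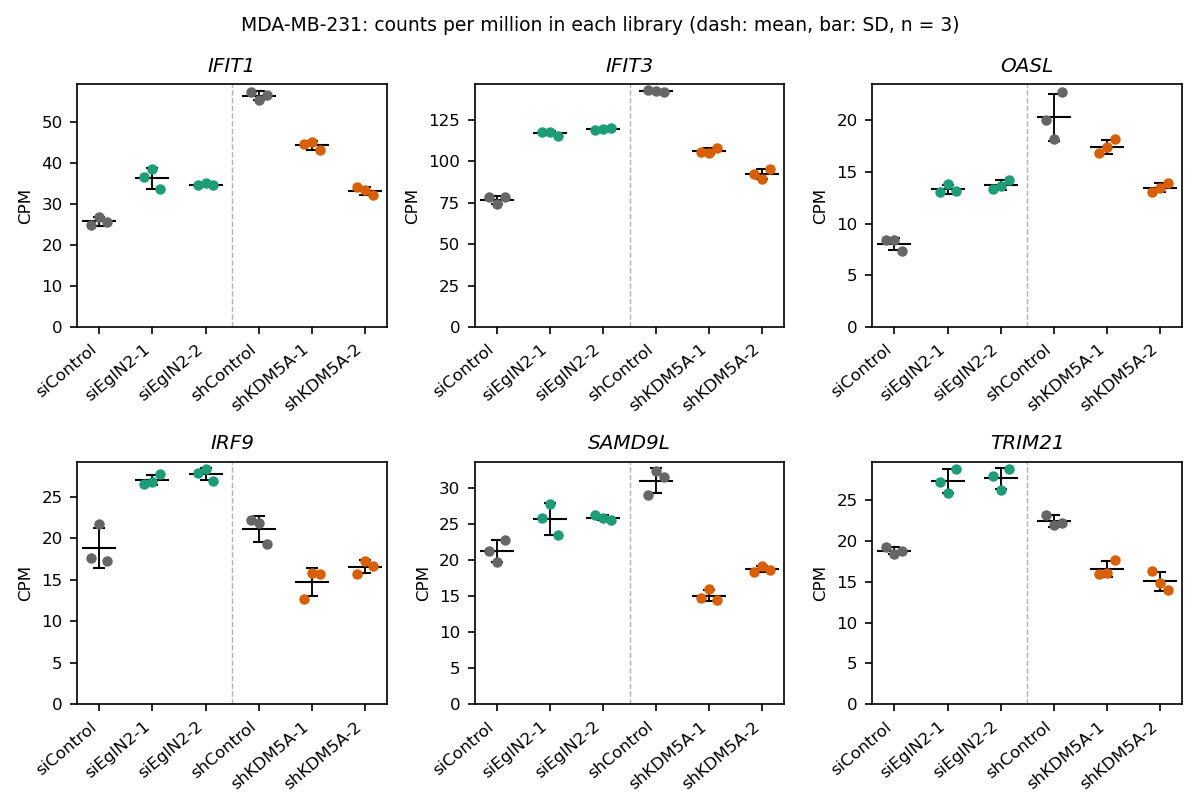
Points are CPM values of single MDA-MB-231 libraries, with the mean (dash) and SD (bar) of each group of 3, for IFIT1, IFIT3, OASL, IRF9, SAMD9L and TRIM21; the dashed line divides the siRNA from the shRNA experiment, which were scaled separately. In every panel all siRNA knockdown libraries lie above siControl and all shRNA knockdown libraries below shControl.

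The OAS family makes 2-5A, the messenger that activates RNase L, and its members did not move as a block. OASL, which has no 2-5A synthetase activity and supports RIG-I signalling, measured 8.39, 8.39 and 7.36 CPM in siControl, 13.1, 13.8 and 13.1 with siEglN2-1 and 13.3, 13.7 and 14.3 with siEglN2-2 (0.73 ± 0.09 and 0.77 ± 0.09, adjusted p = 1.2e-08 and 2.0e-09). In the shRNA experiment it measured 20.02, 18.2 and 22.7 CPM in shControl, 16.8, 17.4 and 18.2 under shKDM5A-1 and 13.1, 13.4 and 13.9 under shKDM5A-2 (-0.23 ± 0.07 and -0.60 ± 0.08, adjusted p = 0.0103 and 6.9e-08). Groups did not overlap, though the shKDM5A-1 call was lost with DESeq2 (-0.23) and without shControl replicate 3 (-0.13). OAS2 rose from 18.7, 18.3 and 16.99 CPM to 21.8, 23.5 and 22.9 and 24.1, 21.6 and 22.1 with the siRNAs (0.34 ± 0.07 and 0.33 ± 0.07, adjusted p = 5.6e-05 and 8.4e-05). It fell from 20.02, 21.5 and 18.9 CPM to 11.3, 10.1 and 11.3 under shKDM5A-1 and 14.03, 13.5 and 13.97 under shKDM5A-2 (-0.88 ± 0.08 and -0.54 ± 0.08, adjusted p = 2.5e-11 and 2.5e-07). The shKDM5A-1 libraries of OAS2 lay below the shKDM5A-2 libraries, the reverse of the order for OASL. OAS1 moved the other way from OAS2 and OASL with EglN2, from 7.54, 8.25 and 9.697 CPM in siControl to 5.69, 5.35 and 5.89 with siEglN2-1 and 6.78, 6.28 and 5.93 with siEglN2-2 (-0.59 ± 0.12 and -0.42 ± 0.11, adjusted p = 5.6e-05 and 0.0021). OAS1 also fell with KDM5A knockdown, from 9.23, 8.36 and 8.89 CPM to 5.39, 4.67 and 5.24 under shKDM5A-1 and 4.89, 5.11 and 4.26 under shKDM5A-2 (-0.79 ± 0.11 and -0.89 ± 0.11, adjusted p = 3.5e-07 and 4.2e-08). Every OAS1 knockdown library lay below its controls. OAS3 did not pass the test with either siRNA (-0.08 ± 0.05 and -0.05 ± 0.05).

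Among the sensors of viral RNA, IFIH1 (MDA5) and DDX60 rose with both siRNAs, and IFIH1, DDX60 and DDX58 (RIG-I) fell with both shRNAs. IFIH1 measured 10.1, 9.900 and 12.03 CPM in siControl, 13.8, 15.8 and 16.1 with siEglN2-1 and 15.7, 13.9 and 15.5 with siEglN2-2 (0.52 ± 0.09 and 0.50 ± 0.09, adjusted p = 7.1e-06 and 1.2e-05). It measured 16.3, 17.5 and 18.8 CPM in shControl, 11.5, 13.5 and 11.8 under shKDM5A-1 and 11.3, 12.9 and 12.3 under shKDM5A-2 (-0.52 ± 0.08 and -0.53 ± 0.08, adjusted p = 2.3e-06 and 1.9e-06), and no knockdown library overlapped its controls in either experiment. DDX58 stayed close to its controls in the siRNA experiment, at 86.1, 86.2 and 90.7 CPM in siControl, 86.5, 84.7 and 83.5 with siEglN2-1 and 86.7, 87.3 and 88.2 with siEglN2-2 (-0.05 ± 0.03 and -0.00 ± 0.03, neither called). In the shRNA experiment it fell from 115, 109 and 110.1 CPM to 79.3, 82.8 and 77.4 under shKDM5A-1 and 80.8, 78.2 and 81.3 under shKDM5A-2 (-0.48 ± 0.04 and -0.47 ± 0.04, adjusted p = 4.5e-13 and 4.5e-13), with no overlap. DDX60, a helicase that promotes RIG-I signalling, changed by 0.32 ± 0.09 and 0.36 ± 0.09 with the siRNAs and -0.39 ± 0.07 and -0.46 ± 0.07 with the shRNAs, all called, but the siEglN2-1 call was lost without siEglN2-1 replicate 3 (0.23). DHX58 (LGP2) passed the test only with shKDM5A-2 (-0.61 ± 0.19, lost with DESeq2), and EIF2AK2 (PKR), the kinase that halts translation, only with shKDM5A-2, where it rose (0.16 ± 0.06, lost with the replicate block).

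Of the transcription factors, IRF9 and STAT2, the partners in the ISRE-binding complex, and IRF7 rose with both siRNAs. IRF9 measured 17.6, 21.7 and 17.3 CPM in siControl, 26.5, 26.7 and 27.7 with siEglN2-1 and 27.9, 28.4 and 26.9 with siEglN2-2 (0.52 ± 0.07 and 0.56 ± 0.07, adjusted p = 1.5e-08 and 1.8e-09). In the shRNA experiment it fell from 22.2, 21.8 and 19.3 CPM to 12.7, 15.8 and 15.7 under shKDM5A-1 and 15.7, 17.3 and 16.7 under shKDM5A-2 (-0.51 ± 0.08 and -0.34 ± 0.08, adjusted p = 2.1e-06 and 4.1e-04), and no groups overlapped with their controls. STAT2 rose by 0.33 ± 0.04 and 0.33 ± 0.04 with the siRNAs, fell with shKDM5A-1 (-0.25 ± 0.05) and gave -0.04 ± 0.05 with shKDM5A-2, which was not called. IRF1, which responds mainly to interferon gamma, fell with all 4 reagents in MDA-MB-231. It measured 72.2, 71.6 and 75.3 CPM in siControl, 67.98, 65.1 and 65.8 with siEglN2-1 and 68.5, 64.3 and 67.2 with siEglN2-2 (-0.14 ± 0.04 and -0.13 ± 0.04, adjusted p = 0.0025 and 0.0043). In the shRNA experiment it measured 76.4, 74.8 and 72.4 CPM in shControl, 48.96, 50.2 and 53.4 under shKDM5A-1 and 55.5, 54.1 and 53.4 under shKDM5A-2 (-0.55 ± 0.04 and -0.45 ± 0.04, adjusted p = 5.8e-13 and 3.2e-11). All IRF1 knockdown libraries lay below their controls. IRF1 and OAS1 were the 2 of 42 members lower with all 4 reagents, against 698 of all 14889 genes tested in both experiments.

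TRIM21, an antibody receptor in the cytosol, measured 19.2, 18.4 and 18.7 CPM in siControl, 27.2, 25.8 and 28.8 with siEglN2-1 and 27.9, 26.2 and 28.8 with siEglN2-2 (0.54 ± 0.06 and 0.56 ± 0.06, adjusted p = 1.4e-09 and 4.4e-10). It fell from 23.2, 21.9 and 22.1 CPM in shControl to 15.9, 16.1 and 17.7 under shKDM5A-1 and 16.3, 14.8 and 13.9 under shKDM5A-2 (-0.44 ± 0.07 and -0.58 ± 0.07, adjusted p = 3.1e-06 and 2.4e-08), without overlap in either experiment. TRIM22, a related ubiquitin ligase, did not pass the test with the siRNAs (0.04 ± 0.12 and -0.07 ± 0.12) and fell with the shRNAs, from 7.95, 7.92 and 8.49 CPM to 5.49, 5.06 and 5.91 and 4.31, 4.73 and 4.69 (-0.57 ± 0.11 and -0.83 ± 0.11, adjusted p = 4.9e-05 and 1.9e-07). TAP1, which pumps peptides for antigen presentation, was called only with shKDM5A-2 (-0.21 ± 0.04). PARP14 likewise fell only with KDM5A knockdown, from 66.2, 71.9 and 62.2 CPM in shControl to 48.4, 47.2 and 40.8 under shKDM5A-1 and 38.9, 39.2 and 37.9 under shKDM5A-2 (-0.55 ± 0.06 and -0.78 ± 0.06, adjusted p = 8.1e-08 and 5.0e-10), against -0.03 ± 0.05 and -0.02 ± 0.05 with the siRNAs. PARP9 and its partner ligase DTX3L rose with both siRNAs (PARP9 0.36 ± 0.08 and 0.41 ± 0.08, DTX3L 0.28 ± 0.05 and 0.30 ± 0.05) and were called lower with shKDM5A-2 only. PARP9 and DTX3L overlap on opposite strands, so reads of the overlap cannot be told apart without strand. PARP12 rose by 0.13 ± 0.05 and 0.16 ± 0.05 with the siRNAs, calls that were lost without siControl replicate 3 (0.087 and 0.11). PARP12 was called lower with shKDM5A-2 (-0.13 ± 0.05, lost with DESeq2 at -0.13) and not called with shKDM5A-1 (0.02 ± 0.05).

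Other effectors included the members that moved furthest with KDM5A knockdown. ISG20, a 3' exonuclease that degrades RNA, fell from 13.3, 12.4 and 11.8 CPM in shControl to 6.53, 7.18 and 8.02 under shKDM5A-1 and 4.77, 4.25 and 4.96 under shKDM5A-2 (-0.78 ± 0.10 and -1.42 ± 0.11, adjusted p = 3.9e-08 and 4.4e-13). It rose with siEglN2-1 (0.30 ± 0.10), a call lost with DESeq2, and gave 0.14 ± 0.10 with siEglN2-2. SAMD9L, an inhibitor of translation and growth, fell from 29.1, 32.5 and 31.6 CPM to 14.8, 15.97 and 14.5 under shKDM5A-1 and 18.4, 19.2 and 18.7 under shKDM5A-2 (-1.04 ± 0.06 and -0.73 ± 0.06, adjusted p = 3.7e-15 and 7.1e-12). SAMD9L rose from 21.3, 19.7 and 22.9 CPM in siControl to 25.9, 27.9 and 23.5 with siEglN2-1 and 26.3, 25.9 and 25.6 with siEglN2-2 (0.27 ± 0.07 and 0.29 ± 0.07, adjusted p = 6.4e-04 and 3.2e-04), and its paralog SAMD9 moved in the same directions (0.32 ± 0.05, 0.33 ± 0.05, -0.63 ± 0.05 and -0.29 ± 0.05). No SAMD9 or SAMD9L knockdown library overlapped its controls. IFI44 fell from 28.6, 26.8 and 27.9 CPM to 16.5, 16.8 and 17.8 under shKDM5A-1 and 17.1, 18.97 and 18.3 under shKDM5A-2 (-0.71 ± 0.06 and -0.61 ± 0.06, adjusted p = 3.3e-11 and 5.0e-10). It rose by 0.18 ± 0.07 and 0.24 ± 0.06 with the siRNAs, and the siEglN2-1 call was lost with DESeq2. XAF1, a promoter of apoptosis, rose by 0.38 ± 0.08 and 0.47 ± 0.08 and fell with the shRNAs (-0.39 ± 0.08 and -0.61 ± 0.08). MX1, a GTPase that traps viral particles, measured 3.97, 3.09 and 3.19 CPM in siControl, 4.57, 5.69 and 4.98 with siEglN2-1 and 4.58, 4.95 and 5.38 with siEglN2-2 (0.57 ± 0.15 and 0.54 ± 0.15, adjusted p = 0.0016 and 0.0027), and fell with shKDM5A-2 (-0.60 ± 0.15) but gave -0.10 ± 0.14 with shKDM5A-1. IFI27 and IFI35 were called only with shKDM5A-2 (-0.44 ± 0.10 and -0.46 ± 0.07), and IFI44L was called with none of the 4 reagents. RSAD2 (viperin) had 35 counts in all 9 libraries of the KDM5A experiment together and was not tested.

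IFI6, a mitochondrial and endoplasmic reticulum protein that opposes cell death, was the single member higher with all 4 reagents in MDA-MB-231. That is 1 of 42 members, against 664 of all 14889 genes tested in both experiments. IFI6 rose with each siRNA and each shRNA. It measured 9.62, 9.97 and 7.86 CPM in siControl, 11.7, 12.7 and 12.1 with siEglN2-1 and 11.5, 12.7 and 11.8 with siEglN2-2 (0.41 ± 0.10 and 0.39 ± 0.10, adjusted p = 5.0e-04 and 8.6e-04). In the shRNA experiment it measured 10.2, 8.67 and 9.400 CPM in shControl, 12.8, 11.4 and 11.5 under shKDM5A-1 and 14.03, 15.1 and 13.8 under shKDM5A-2 (0.34 ± 0.09 and 0.61 ± 0.09, adjusted p = 0.0019 and 4.9e-07). Every knockdown library lay above its controls.

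ISG15, the ubiquitin-like modifier, rose with the siRNAs by small amounts (0.17 ± 0.05 and 0.12 ± 0.05). The siEglN2-2 call was lost with DESeq2 and without siControl replicate 1 (0.10), and the shRNAs gave -0.08 ± 0.05 and -0.09 ± 0.05, neither called. Its ligase HERC5 did not pass the test with the siRNAs (0.04 ± 0.07 and 0.11 ± 0.06) and fell from 35.8, 35.5 and 33.2 CPM in shControl to 31.5, 31.5 and 30.4 under shKDM5A-1 and 21.8, 24.8 and 22.9 under shKDM5A-2 (-0.16 ± 0.05 and -0.58 ± 0.06, adjusted p = 0.015 and 2.5e-10). The shKDM5A-1 call of HERC5 was lost with DESeq2 (-0.16). USP18, which removes ISG15 and damps the interferon receptor, was called only with shKDM5A-1, where it rose (0.50 ± 0.21), and this was lost with DESeq2 and with the replicate block. BST2 (tetherin), which holds budding virus at the membrane, fell with both shRNAs (-0.52 ± 0.05 and -0.31 ± 0.05) and gave 0.09 ± 0.04 and 0.05 ± 0.04 with the siRNAs, neither called.

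Many genes differed between the 2 KDM5A shRNAs, members among them, while no member and almost no other gene was called between the 2 EglN2 siRNAs. Between shKDM5A-2 and shKDM5A-1 in MDA-MB-231, 10 of 42 members were higher with the second (against 26.9% of all genes tested) and 18 lower (against 29.7%). Between the siRNAs, edgeR called 0 of 42 members in either direction (against 0.00662% of all genes tested called higher and 0% lower), with 1 member at an unadjusted p under 0.05, and DESeq2 called 0. There were 5 members called in opposite directions with the 2 shRNAs: IFITM1, IFITM2, IFITM3, HERC6 and OAS3. The share of all genes called in opposite directions was not counted. IFITM1, which blocks viral entry at the cell surface, measured 14.5, 13.2 and 14.02 CPM in shControl, 18.7, 17.8 and 20.00 under shKDM5A-1 and 8.85, 10.3 and 8.31 under shKDM5A-2 (0.44 ± 0.08 and -0.60 ± 0.09, adjusted p = 2.1e-05 and 1.0e-06). The shKDM5A-1 libraries all lay above and the shKDM5A-2 libraries all below the controls. IFITM3, which acts in endosomes, did the same, at 217, 206 and 216 CPM in shControl, 251, 239.7 and 254 under shKDM5A-1 and 174, 178 and 169 under shKDM5A-2 (0.22 ± 0.03 and -0.30 ± 0.03, adjusted p = 1.3e-07 and 4.2e-10). IFITM2 gave 0.12 ± 0.04 and -0.34 ± 0.04, the first of them lost with DESeq2. IFITM1, IFITM2 and IFITM3 are similar neighbours on chromosome 11, and exons of IFITM1 and IFITM2 overlap on the same strand. Counting may have split reads among the 3 genes, so their separate values are uncertain. All 3 rose with both EglN2 siRNAs, IFITM1 from 11.6, 10.7 and 13.2 CPM to 18.5, 16.2 and 14.4 and 16.9, 16.6 and 16.8 (0.47 ± 0.09 and 0.51 ± 0.09, adjusted p = 2.8e-05 and 6.1e-06).

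HERC6 and OAS3 moved in the reverse order, lower with shKDM5A-1 and higher with shKDM5A-2. HERC6, a paralog of the ISG15 ligase, measured 15.03, 15.3 and 14.7 CPM in shControl, 13.3, 10.5 and 11.3 under shKDM5A-1 and 16.8, 17.6 and 20.4 under shKDM5A-2 (-0.36 ± 0.09 and 0.29 ± 0.08, adjusted p = 0.0011 and 0.0042). The shKDM5A-2 call of HERC6 was lost without shKDM5A-2 replicate 3 (0.20). OAS3 measured 50.7, 47.7 and 51.5 CPM in shControl, 41.5, 37.4 and 37.9 under shKDM5A-1 and 54.1, 54.6 and 53.8 under shKDM5A-2 (-0.36 ± 0.05 and 0.12 ± 0.05, adjusted p = 1.2e-07 and 0.031), and its rise was lost with DESeq2 (0.12). IRF7, the factor that amplifies interferon production, fell with the first shRNA only, at 13.8, 12.04 and 13.1 CPM in shControl, 7.51, 8.68 and 8.19 under shKDM5A-1 and 13.3, 14.2 and 12.6 under shKDM5A-2. Its difference between the shRNAs was 0.72 ± 0.09 (adjusted p = 4.8e-08), and all 3 shKDM5A-1 libraries lay below the other 6. Of the 4 members called higher with shKDM5A-2, 1 was left without shKDM5A-2 replicate 3 and 2 were left without shKDM5A-2 replicate 2 or shControl replicate 2. Without shControl replicate 2, 3 of the 5 called higher with shKDM5A-1 were left.

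**Figure D3:**
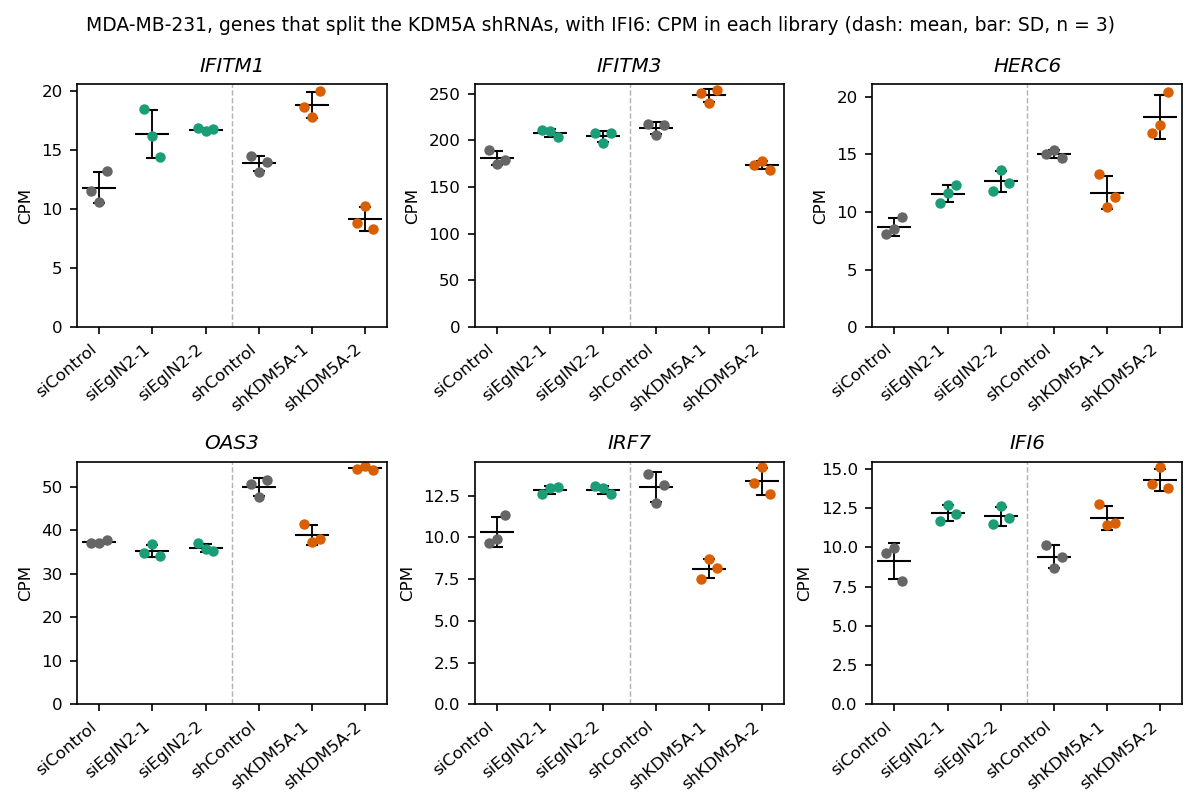
Points are CPM values of single MDA-MB-231 libraries, with the mean (dash) and SD (bar) of each group of 3, for 5 genes that differed between the KDM5A shRNAs and for IFI6. IFITM1 and IFITM3 lie above shControl with shKDM5A-1 and below it with shKDM5A-2, HERC6 and OAS3 do the reverse, and IFI6 lies above its controls with all 4 reagents.

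Set side by side in MDA-MB-231, the effects of EglN2 and KDM5A knockdown differed for 36 of 42 members, and in each of the 36 the EglN2 effect was the higher (against 27.1% of all genes tested). DESeq2 called 34 with the higher EglN2 effect. The call of OAS1, which fell with all 4 reagents, was lost in 9 of 22 alternatives, and that of TAP1 in 4. No member had the lower EglN2 effect by edgeR (against 26.7%), where 0 members had an unadjusted p under 0.05 in that direction and DESeq2 called 0. Without MDA-MB-231 shKDM5A-1 replicate 3 that count was 1, EIF2AK2 (-0.13). The difference was taken between the means of both reagents, each against its own control, in 1 fit of 18 libraries, and its median was 0.50 for the members and 0.013 for all genes. It was 1.14 ± 0.04 for IFIT3 (adjusted p = 4.1e-30), 1.14 ± 0.05 for IFIT2 (3.4e-23), 1.01 ± 0.06 for IFIT1 (1.2e-18), 1.16 ± 0.08 for SAMD9L (2.8e-17), 1.05 ± 0.08 for TRIM21 (2.2e-15) and 0.78 ± 0.07 for SAMD9 (2.2e-14). The 6 members that did not pass were EIF2AK2, OAS3, USP18, IFI6, IFI44L and DHX58. IFITM1, IFITM2, IFITM3 and HERC6 are among the 36, though they were called in opposite directions with the 2 shRNAs. For them the mean of the shRNAs describes neither reagent. In all, 14 members were higher with both siRNAs and lower with both shRNAs: IFI44, IFIH1, DDX60, SAMD9, SAMD9L, IFIT1, IFIT2, IFIT3, IFIT5, TRIM21, OAS2, OASL, IRF9 and XAF1. They make up 53.8% of the members higher with EglN2 knockdown and 63.6% of those lower with KDM5A knockdown. Over all genes tested in both experiments, 481 genes had that pattern, 17.4% and 19.97% of the corresponding lists.

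**Figure D4:**
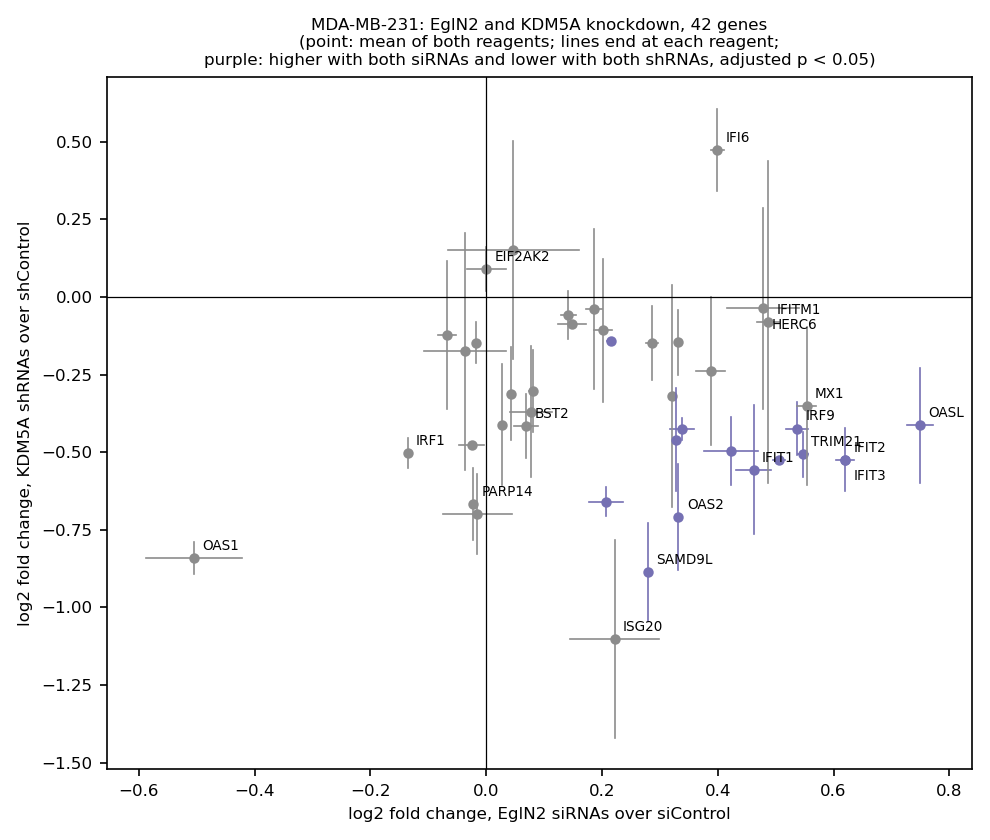
Each point is an interferon-stimulated gene in MDA-MB-231, at its mean log2 fold change with the EglN2 siRNAs over siControl (x axis) and with the KDM5A shRNAs over shControl (y axis); the lines end at the value of each reagent and purple marks the 14 genes higher with both siRNAs and lower with both shRNAs. Most points lie to the right of 0 and below 0, IFI6 lies above 0 on both axes and OAS1 and IRF1 lie below 0 on both.

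The 2 control groups of MDA-MB-231 did not start from the same level. In 28 of 42 members all 3 shControl libraries lay above all 3 siControl libraries in CPM (66.7%, against 29.9% of all genes tested in both experiments), and in 1, BST2, below (against 27.4%). The median ratio of shControl to siControl was 0.34 on the log2 scale for the members and 0.019 for all genes. IFIT1 averaged 25.8 CPM in siControl and 56.5 in shControl, OASL 8.05 and 20.3, IFIT2 42.6 and 84.8, and IFIT3 77.0 and 142. The tables were scaled separately, and control reagent, delivery and experiment cannot be told apart in this comparison. In 293T, 6 of 31 members lay higher in shControl (19.4%, against 30.9%) and 9 lower (29.03%, against 25.5%).

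In 293T, fewer members passed the test. With siEglN2-1, 4 of 33 members rose (12.1%, against 16.9% of all genes tested) and 4 fell (against 18.2%), and with siEglN2-2 3 rose (against 16.8%) and 3 fell (against 17.3%). Called with both siRNAs were DDX60, STAT2 and HERC6, which rose (3 of 33, against 14.6%), and IFI44L, which fell (1 of 33, against 15.5%). All 3 of the genes that rose also rose with both siRNAs in MDA-MB-231, where 20 of the 33 members tested in both lines rose. Over all genes tested in both lines, 953 of the 2174 higher with both siRNAs in 293T were also higher in MDA-MB-231 (43.8%). DDX60 measured 2.45, 3.56 and 2.17 CPM in siControl, 5.68, 5.29 and 5.18 with siEglN2-1 and 5.22, 5.101 and 5.52 with siEglN2-2 (0.97 ± 0.16 and 0.94 ± 0.16, adjusted p = 0.001 and 0.0013). STAT2 measured 41.1, 39.6 and 33.5 CPM in siControl, 47.2, 49.3 and 45.2 with siEglN2-1 and 50.4, 48.9 and 48.5 with siEglN2-2 (0.31 ± 0.07 and 0.37 ± 0.07, adjusted p = 0.007 and 0.0027). For both genes all knockdown libraries lay above the controls. HERC6 rose from 6.12, 6.497 and 5.06 CPM to 7.29, 8.22 and 7.41 and 7.53, 7.22 and 7.62 (0.37 ± 0.10 and 0.33 ± 0.10, adjusted p = 0.019 and 0.032), calls lost with the replicate block (0.28 and 0.24). The unnumbered siControl library was the lowest of the 3 controls for DDX60, STAT2 and HERC6, and without it the siEglN2-2 call of HERC6 was lost (0.24). IFI44L fell from 4.01, 2.896 and 3.64 CPM to 2.04, 2.67 and 2.54 and 2.396, 2.299 and 2.65 (-0.54 ± 0.16 and -0.52 ± 0.16), calls lost with DESeq2 and without siControl replicate 1. OASL passed the test only with siEglN2-2, at 0.548, 0.47 and 0.851 CPM in siControl, 0.424, 0.258 and 0.134 with siEglN2-1 and 0.24, 0.215 and 0.274 with siEglN2-2 (-1.33 ± 0.42, adjusted p = 0.032). That call of OASL was lost with the replicate block (-0.91), without the unnumbered control (-1.06), without siControl replicate 1, without siEglN2-1 replicate 2 and without any 1 of the siEglN2-2 libraries. Without the unnumbered control, the counts with both siRNAs were 3 higher and 4 lower. IFITM1 was then called higher with both (0.46 and 0.48, also called with the replicate block, against 0.31 ± 0.13 and 0.33 ± 0.13 with all libraries, not called) and HERC6 no longer was, while EIF2AK2, HERC5 and TAP1 joined IFI44L as lower. Between the siRNAs edgeR called 0 of 33 members (against 0% of all genes tested, 0 at an unadjusted p under 0.05), and DESeq2 called 0.

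With shKDM5A-1 in 293T, 1 of 31 members rose (against 21.6% of all genes tested) and 3 fell (against 20.6%). With shKDM5A-2, 5 rose (against 19.5%) and 8 fell (25.8%, against 19.5%). Called with both were HERC5, which rose (1 of 31, against 7.33%), and TAP1, which fell (1 of 31, against 6.11%), and DESeq2 called neither with both. HERC5 measured 28.8, 28.1 and 26.3 CPM in shControl, 31.2, 30.5 and 31.1 under shKDM5A-1 and 42.04, 44.3 and 45.01 under shKDM5A-2 (0.16 ± 0.05 and 0.66 ± 0.05, adjusted p = 0.015 and 1.2e-13). The groups did not overlap, and the shKDM5A-1 call was lost without shControl replicate 3 (0.12). TAP1 measured 21.5, 20.9 and 19.04 CPM in shControl, 18.04, 18.7 and 16.9 under shKDM5A-1 and 16.6, 18.5 and 16.5 under shKDM5A-2 (-0.20 ± 0.07 and -0.25 ± 0.07), and the shKDM5A-1 call was lost without shControl replicate 1 or 2 or shKDM5A-1 replicate 3. BST2 fell with the first shRNA, from 4.702, 5.502 and 5.24 CPM in shControl to 1.43, 1.75 and 1.85 with shKDM5A-1 (-1.62 ± 0.16, adjusted p = 3.1e-10), and stood at 4.304, 4.700 and 3.91 with shKDM5A-2 (-0.26 ± 0.14, not called). The 2 shRNAs differed for BST2 by 1.35 ± 0.17 (adjusted p = 1.6e-08). Between them, 5 of 31 members were higher with shKDM5A-2 (against 24.3%) and 9 lower (against 25.0%).

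Members that fell with shKDM5A-2 and not with shKDM5A-1 in 293T included IFIH1, IFI35, IFITM3 and DTX3L. The IFIH1 call was lost without shControl replicate 3 (-0.65), and that of IFITM3 with DESeq2 (-0.43) and without shControl replicate 2 (-0.34). IFIH1 measured 1.43, 1.57 and 2.398 CPM in shControl, 2.62, 2.09 and 1.96 under shKDM5A-1 and 0.997, 0.992 and 0.874 under shKDM5A-2 (difference of the shRNAs -1.22 ± 0.25, adjusted p = 1.1e-04). IFI35 measured 3.27, 3.13 and 3.52 CPM in shControl, 3.69, 3.22 and 4.099 under shKDM5A-1 and 2.099, 1.46 and 2.25 under shKDM5A-2 (-0.91 ± 0.18, adjusted p = 5.8e-05). For both genes the shKDM5A-2 libraries lay below all 6 others. IFITM3 and IFITM1 split there too, by -0.63 ± 0.15 and 0.43 ± 0.09 (adjusted p = 5.6e-04 and 8.5e-05), and DTX3L by -0.84 ± 0.23. For IFITM1 the order of the shRNAs in 293T, higher with the second, was the reverse of that in MDA-MB-231. The difference between EglN2 and KDM5A effects in 293T was called for 9 of 31 members, 6 with the higher EglN2 effect (against 21.8%) and 3 with the lower (against 22.0%), and 1 of the latter was left without shControl replicate 1. It was 1.29 ± 0.17 for DDX60, 0.39 ± 0.08 for STAT2, 0.76 ± 0.17 for BST2, 0.82 ± 0.20 for DTX3L, 1.17 ± 0.32 for OAS3 and -0.61 ± 0.07 for HERC5. BST2 was called with shKDM5A-1 only, so the mean of the shRNAs describes neither reagent. OAS3 was called with neither siRNA and measured 0.462 to 1.37 CPM over the 293T libraries. IFIH1, also among those with the higher EglN2 effect, lost its call in 15 of 22 alternatives.

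**Figure D5:**
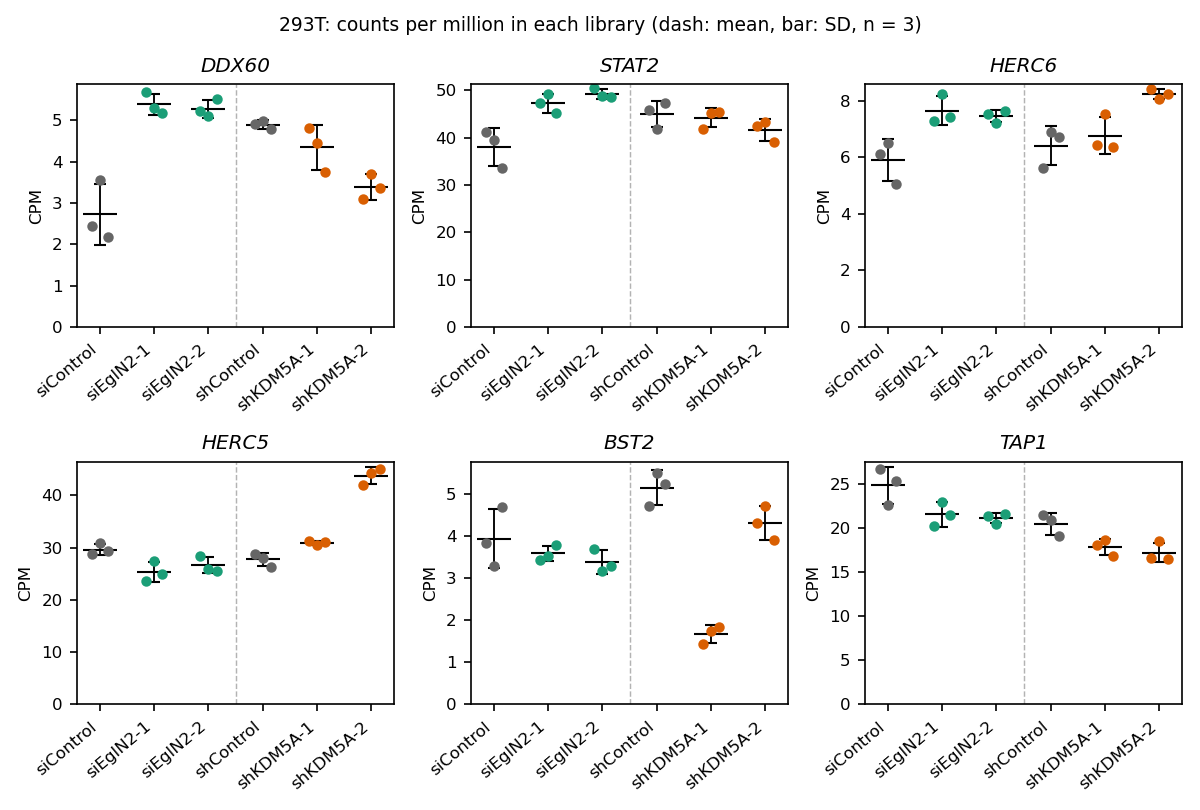
Points are CPM values of single 293T libraries, with the mean (dash) and SD (bar) of each group of 3, for DDX60, STAT2, HERC6, HERC5, BST2 and TAP1; the dashed line divides the siRNA from the shRNA experiment. DDX60, STAT2 and HERC6 lie above siControl with both siRNAs, and BST2 lies lowest with shKDM5A-1.

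The effects were also compared between lines, in fits of 18 libraries per target. The EglN2 effect was higher in MDA-MB-231 than in 293T for 9 of 33 members (27.3%, against 17.2% of all genes tested) and lower for 2 (6.06%, against 13.9%), DDX60 and OAS3. OASL differed by 1.99 ± 0.29 (adjusted p = 4.3e-05). OASL rose in MDA-MB-231, and its knockdown libraries lay below the controls in 293T. IFIT1 differed by 0.55 ± 0.10 (adjusted p = 3.7e-04), with 0.01 ± 0.11 and -0.17 ± 0.11 in 293T where it was not called. DDX60 rose in both lines and more in 293T, by -0.61 ± 0.16 (adjusted p = 0.0069). The OAS3 call was lost without 293T siControl replicate 1, which left 1 member lower. Without the unnumbered 293T control the counts were 11 and 2, and without it and MDA-MB-231 siControl replicate 1 together they were 10 and 2. The KDM5A effect was lower in MDA-MB-231 for 9 of 32 members (28.1%, against 22.0%) and higher for 2 (6.25%, against 22.7%), IFI6 and BST2. BST2 fell with both shRNAs in MDA-MB-231 but was called in 293T with shKDM5A-1 only. IFITM2, among the lower members, was called in opposite directions with the 2 shRNAs in MDA-MB-231. HERC5, which rose in 293T and fell in MDA-MB-231, differed by -0.78 ± 0.06 (adjusted p = 9.6e-13). DDX58 differed by -0.75 ± 0.11, IRF1 by -0.70 ± 0.10 and IFIT1 by -0.56 ± 0.09 (adjusted p = 2.4e-07, 3.5e-07 and 1.3e-06).

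The other genes of the pathway formed a second list of 57 symbols, from ligands and receptors to further induced genes. With EglN2 knockdown in MDA-MB-231, 21 of 48 tested were higher with both siRNAs (43.8%, against 18.3% of all genes tested) and 7 lower (14.6%, against 20.4%). With KDM5A knockdown there, 3 of 49 were higher with both shRNAs (6.12%, against 16.4%), 19 lower (38.8%, against 15.8%) and 7 called in opposite directions. The share of all genes called in opposite directions was not counted. In 293T, 4 of 39 were higher with both siRNAs (10.3%, against 14.6%) and 2 lower (5.13%, against 15.5%). With both shRNAs there, 1 of 36 was higher (2.78%, against 7.33%) and 1 lower (2.78%, against 6.11%). Of the 12 ligands and receptors on the list, 6 had a row in each of the 4 tables. Levels of IFNB1, IFNE, IFNK, IFNL1, IFNL2 and IFNL3, the interferons of the list, are not given here.

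CXCL10, a chemokine for T cells that interferon induces, measured 1.105, 0.894 and 0.849 CPM in siControl, 2.31, 1.84 and 2.83 with siEglN2-1 and 1.92, 2.37 and 2.03 with siEglN2-2 (1.28 ± 0.26 and 1.14 ± 0.26, adjusted p = 5.1e-05 and 2.9e-04). It fell from 7.41, 7.18 and 7.47 CPM in shControl to 0.925, 1.06 and 0.836 under shKDM5A-1 and 0.757, 0.806 and 1.08 under shKDM5A-2 (-2.96 ± 0.18 and -3.05 ± 0.18, adjusted p = 2.5e-15 and 1.2e-15), with no overlap in either experiment. Its relative CXCL11 gave 1.04 ± 0.23 and 1.06 ± 0.22 with the siRNAs and -2.66 ± 0.15 and -1.93 ± 0.13 with the shRNAs. GBP2, a GTPase of the interferon gamma response, rose by 0.39 ± 0.05 and 0.38 ± 0.05 and fell with the shRNAs (-1.53 ± 0.05 and -1.30 ± 0.05), while GBP1 rose with the siRNAs (0.44 ± 0.04 and 0.46 ± 0.04) and split the shRNAs (-1.26 ± 0.05 and 0.78 ± 0.04). TMEM173 (STING), the adaptor of DNA sensing, rose with both siRNAs (0.62 ± 0.05 and 0.61 ± 0.05) and fell with both shRNAs (-0.97 ± 0.05 and -0.92 ± 0.05). SOCS1, an inhibitor of JAK kinases, fell with both siRNAs (-0.64 ± 0.18 and -0.80 ± 0.18) and both shRNAs (-0.86 ± 0.11 and -1.46 ± 0.12). The receptor chains IFNGR1 and IFNGR2 fell with both shRNAs (IFNGR1 -0.20 ± 0.05 and -0.58 ± 0.05, IFNGR2 -0.62 ± 0.05 and -0.57 ± 0.05). The receptor chain IFNAR1 rose with both siRNAs in MDA-MB-231 (0.17 ± 0.04 and 0.17 ± 0.04) and in 293T (0.21 ± 0.05 and 0.19 ± 0.05).

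The promoter cores were also counted by the response of the gene. The ISRE core was in 15 of the 21 matched members higher with both siRNAs in MDA-MB-231 (71.4%) and in 9 of the other 14 (64.3%). It was in 12 of the 18 matched members lower with both shRNAs (66.7%) and in 12 of the other 17 (70.6%). The GAS core was in 3 of 21 members higher with both siRNAs (14.3%) and 6 of the other 14 (42.9%), and in 6 of 18 members lower with both shRNAs (33.3%) and 3 of the other 17 (17.6%). These shares are given as a description with no test.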

How the data were processed

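The authors deposited 4 tables, 1 per line and target, of 9 libraries each. The deposited raw values were treated as estimated counts, since 49.3% to 50.4% of the deposited numbers are whole. Per the submitters' processing notes, the tools included Salmon 0.1.19 and STAR 2.4.2 and the builds hg19 and GRCh38, without roles, and the 36 normalized columns were not used here. Per the labels, libraries came from 1 µg of total RNA with a NEBNext Ultra II kit. In every table the lowest row maximum was 10, so genes lower than that in all libraries are missing.

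Gene names turned into dates (20 to 22 rows per table, 0.194% to 0.209% of counts) were left out. Counts were rounded and fitted with edgeR 4.0.16 in R 4.3.3 (TMM, low counts removed by filterByExpr at a minimum of 10, robust two-sided quasi-likelihood F-test, Benjamini-Hochberg adjustment over all 15109 to 17622 genes tested per experiment). Differences between lines or targets were interactions in fits of 18 libraries on the mean of both reagents. Equally numbered libraries did not deviate together (34 correlations of -0.087 to 0.077), so the numbers were not read as pairs. The fit was tested on simulated data. The members and lists were chosen with earlier results of these data known. Every member is accounted for by role; values in every library are given for members called with both reagents, at most 10 per experiment by the smaller fold change, and for up to 6 per difference, and other members by fold change. Alternatives were DESeq2 1.42.0, median-of-ratios factors, no filter, 6 libraries alone, a replicate block and each library left out; leaving out both control libraries that stand apart was added after seeing the data. Promoter windows are from RefSeq (GRCh38.p14), with DDX58 matched as RIGI, and gene overlaps from GENCODE for GRCh38.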

Additional observations from a re-analysis of the deposited data

Results flagged for a closer look

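Interferon-stimulated genes whose knockdown effect differed between the lines, by the interaction test of edgeR with Benjamini-Hochberg adjustment over all genes, are listed with the effect in MDA-MB-231 minus that in 293T on the log2 scale. For EglN2 the difference was 1.99 for OASL (adjusted p = 4.3e-05), 0.80 for IFI27 (0.0065), 0.60 for IFI6 (0.0053), 0.55 for IFIT1 (0.00037), 0.53 for IFITM3 (0.0010), 0.44 for IFITM2 (0.0074) and 0.44 for TRIM21 (0.0071). It was 0.27 for HERC5 (0.017) and 0.21 for TAP1 (0.033), and the EglN2 effect was the lower in MDA-MB-231 for DDX60 (-0.61, 0.0069) and OAS3 (-0.61, 0.019). TAP1 lost its call in 9 alternatives and OAS3 without 293T siControl replicate 1 (-0.35). OASL and IFI27 were low in the 293T siRNA experiment, at 0.134 to 0.851 and 0.594 to 1.465 CPM. IFI27 was called with neither siRNA in MDA-MB-231. In 293T it was called lower with siEglN2-1 only, a call lost in 5 of 14 alternatives.

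For KDM5A the effect was the lower in MDA-MB-231 for DHX58 (-1.10, 0.014), ISG20 (-0.85, 0.0027), HERC5 (-0.78, 9.6e-13), DDX58 (-0.75, 2.4e-07), IRF1 (-0.70, 3.5e-07) and IFIT1 (-0.56, 1.3e-06). It was also lower for TRIM21 (-0.44, 0.0036), SAMD9 (-0.36, 0.014) and IFITM2 (-0.26, 0.025), and higher for BST2 (0.52, 0.00039) and IFI6 (0.48, 0.00014). In 293T BST2 was called with shKDM5A-1 only. IFITM2 is 1 of 3 similar neighbouring genes, and its exons overlap those of IFITM1. Its KDM5A call was lost in 5 alternatives that each left out 1 library (-0.15 without 293T shControl replicate 2). The SAMD9 call was lost without 293T shControl replicate 1 or 3 (-0.28 to -0.29). DHX58 measured 0.261 to 0.945 CPM in the 293T shRNA experiment and was called there with neither shRNA.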

How the results depend on the processing

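Of 618 recomputed counts of interferon-stimulated genes called, 564 were within 1.5 times the reported count, and no fold change of a gene described with its library values reversed. The cause of the 54 others was not tested. With DESeq2, the members lower in 293T numbered 1 rather than 4 with siEglN2-1, 1 rather than 3 with siEglN2-2, 1 rather than 3 with shKDM5A-1 and 5 rather than 8 with shKDM5A-2. Those higher in 293T numbered 0 rather than 1 with shKDM5A-1, 2 rather than 5 with shKDM5A-2 and 3 rather than 5 in shKDM5A-2 against shKDM5A-1. In MDA-MB-231, 3 rather than 5 were higher with shKDM5A-1. With DESeq2, 0 rather than 1 were lower with both siRNAs in 293T, and 0 rather than 1 were higher and 0 rather than 1 lower with both shRNAs. With the 6 libraries of a comparison alone, 2 rather than 4 were lower with siEglN2-1 in 293T, 3 rather than 5 higher with shKDM5A-2, and 0 rather than 1 lower with both siRNAs. With median-of-ratios factors that last count was 2. With the replicate block, 2 rather than 4 were lower with siEglN2-1 in 293T, and in MDA-MB-231 the counts with both reagents were those reported (26 and 2, 1 and 22).

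Leaving out 1 library at a time, the counts in MDA-MB-231 ranged from 23 to 26 higher with both siRNAs, 21 to 23 lower and 1 to 2 higher with both shRNAs, 3 to 5 higher with shKDM5A-1, 1 to 4 higher with shKDM5A-2, and 0 to 1 with the lower EglN2 effect. In 293T they ranged from 2 to 4 higher and 1 to 5 lower with siEglN2-1, 0 to 4 lower with siEglN2-2, 1 to 3 lower with shKDM5A-1, 2 to 5 higher and 5 to 8 lower with shKDM5A-2, and 3 to 5 higher in shKDM5A-2 against shKDM5A-1. With both reagents in 293T they ranged from 0 to 4 lower with EglN2, and from 0 to 1 in either direction with KDM5A. From 1 to 3 had the lower EglN2 effect in MDA-MB-231 than in 293T, and 1 to 4 the lower EglN2 than KDM5A effect in 293T.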
